A study of Mus musculus with 28 samples.

Results

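The 28 cortical RNA samples of this series were ordered by their level of Gzmb, the gene of granzyme B, and the 9 highest were set against the 9 lowest. Granzyme B is the serine protease that cytotoxic T cells and natural killer cells release into their targets. The samples were chosen by this measured value alone, as its raw count divided by the total count of the sample, written as CPM, and 18 of the 28 samples entered the 2 sets. They are called Gzmb-high and Gzmb-low below, and the other 10 samples are called the middle samples. Gzmb itself was left out of every count and test, and its values are given only to describe the choice. These sets are not groups of the study, so a difference between them says that a gene varied along with Gzmb among these animals and says nothing of an effect of virus or stress.

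Each sample came from the ventromedial prefrontal cortex of a single female mouse. There were 4 groups of 7 mice: LacZ virus without stress, LacZ virus with stress, Slit1 knockdown virus without stress, and Slit1 knockdown virus with stress. LacZ was the control, stress was 3 days of a procedure abbreviated sCVS, and the unstressed mice were taken at baseline. Tissue punches came from coronal slices 1 mm thick. All 4 groups had received virus, so no sample shows cortex without injection. The kind of virus, its promoter, the mouse strain, the age and the time since injection were not given in the sources used here. Slit1, the gene that the knockdown targets, ran from 12.6 to 56.3 CPM without stress under LacZ and from 9.48 to 59.9 under the knockdown label. With stress it ran from 9.28 to 33.9 under LacZ and from 7.48 to 30.9 under the knockdown label, so the groups overlapped in both states and this gene did not separate the virus labels. The counts cover the whole gene span with its introns and ignore strand, so whether the knockdown worked cannot be told from them.

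Cytotoxic T cells carry the CD8 co-receptor and kill by releasing perforin, which opens a path into the target, and granzymes, which start its death. They also secrete interferon gamma, which makes other cells raise the MHC molecules that present peptides to T cells, together with guanylate-binding proteins and the T cell attracting chemokine CXCL9. Viral vectors placed in brain tissue can draw such cells, together with blood monocytes, past the vessel wall into a tissue that otherwise holds few lymphocytes. In bulk tissue, more cells of a type and more RNA per cell cannot be told apart.

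The Gzmb gene lies at chr14:56258838-56262260 on the minus strand of GRCm38. In the Gzmb-high set its level was 130.9 CPM in LacZ stressed replicate 2, 130.0 in Slit1 knockdown stressed replicate 7, 120.1 in Slit1 knockdown stressed replicate 4 and 97.7 in LacZ unstressed replicate 4. The other 5 of that set lay between 61.8 and 79.4 CPM. In the Gzmb-low set the span was wider on a log scale, though not in CPM, and began at 26.4 CPM in Slit1 knockdown unstressed replicate 2. Its lowest values were 5.70 in LacZ unstressed replicate 7, 2.64 in Slit1 knockdown unstressed replicate 5 and 0.432 in LacZ stressed replicate 4. That last sample held 18 Gzmb fragments, against 5266 in Slit1 knockdown stressed replicate 7. The boundaries were not gaps. The last sample inside the high set stood at 61.8 CPM and the first outside it at 59.0, while the first inside the low set stood at 26.4 and the first outside it at 28.6.

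**Figure D1:**
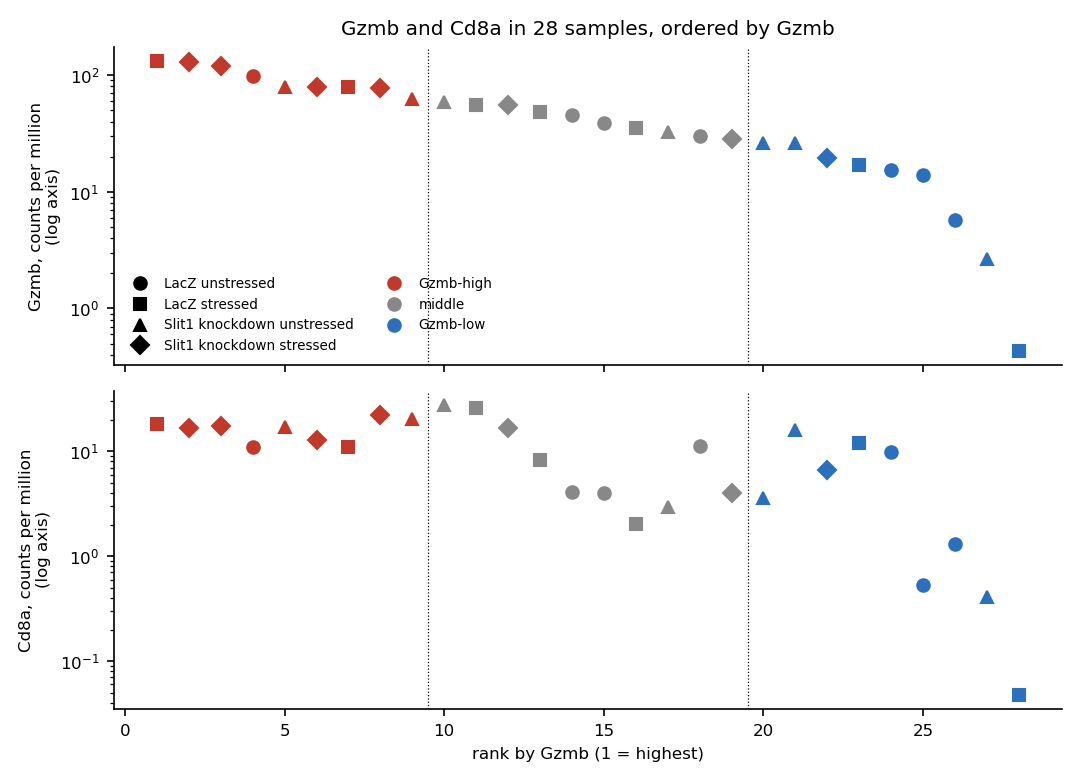
Gzmb (top) and Cd8a (bottom) in CPM on log axes, for 28 samples ordered by Gzmb from rank 1 (highest). Colours mark the Gzmb-high, middle and Gzmb-low samples, marker shapes mark the 4 study groups, and dotted lines mark the edges of the sets. Gzmb falls steeply only over the last 3 samples, and Cd8a is high in several middle samples and in 1 of the Gzmb-low samples above 15 CPM.

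Both sets mixed all 4 study groups. Of LacZ mice, the Gzmb-high set held 1 unstressed and 2 stressed, and the Gzmb-low set 3 and 2. Of mice with the knockdown label, the high set held 2 unstressed and 4 stressed, and the low set 3 and 1. The knockdown label was on 6 of 9 high and 4 of 9 low samples, which Fisher's exact test (two-sided) gave p = 0.637. Stress was on 6 of 9 high and 3 of 9 low samples, with p = 0.347 by the same exact test, and p = 0.637 for both labels after Benjamini-Hochberg adjustment.

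Total counts ran from 30.6 to 44.3 M over the series. They averaged 39.1 ± 3.52 M in the Gzmb-high and 40.02 ± 2.60 M in the Gzmb-low set (SD, n = 9 each; exact permutation test over 48620 regroupings, two-sided, p = 0.525). The mitochondrial share of counts was 5.25 ± 1.79% against 6.48 ± 2.69% (SD, n = 9 each; exact permutation p = 0.270). The GC slope, which is how far a sample's log2 levels tilt with the GC content of a gene, was 0.0706 ± 0.558 against -0.00450 ± 0.563 per 10 points of GC (SD, n = 9 each; exact permutation p = 0.778). All 3 adjusted values were 0.778. A pair of samples stood apart by what tissue they held. Slit1 knockdown stressed replicate 2, in the low set, was rich in bone genes, and Slit1 knockdown stressed replicate 7, in the high set, was rich in striatal neuron genes, so counts are also given without this pair.

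Between the sets, 1435 of 19170 genes (7.49%) had an adjusted p under 0.05 (Benjamini-Hochberg) in edgeR's quasi-likelihood test and are termed called. Higher levels in the Gzmb-high samples made up 1046 of them (5.46% of the genes tested), and lower levels made up 389 (2.03%). Among the called genes the directions differed in size. The median log2 fold change, as Gzmb-high minus Gzmb-low throughout, was 1.20 over the genes called higher and -0.49 over those called lower, against -0.03 over all genes tested. A log2 fold change over 1 was found in 684 of the genes called higher, and one under -1 in 30 of those called lower. Genes called lower were long, with a median span of 105.8 kb against 21.0 kb for those called higher and 22.3 kb for all genes tested. They were also more abundant, with a median of 62.7 CPM in mean level over the 28 samples, against 8.86 for those called higher. The part of level in the sizes of the called changes was not tested. For 154 genes (0.803%) all 9 high samples lay above all 9 low samples, and for 34 genes (0.177%) all lay below.

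The number of calls depended on which samples were in the sets. Without the 3 lowest (LacZ stressed replicate 4, Slit1 knockdown unstressed replicate 5 and LacZ unstressed replicate 7), 256 genes were called, of which 231 were higher and 25 lower. Of these, 231 and 24 were also called in the full comparison, in the same direction. That fit also had a smaller low set, and no other 3 samples were left out together. Whether low Gzmb itself made these samples matter was therefore not tested. Leaving out 1 sample at a time gave from 889 calls, without LacZ unstressed replicate 7, to 2111, without Slit1 knockdown unstressed replicate 2. It gave 922 without Slit1 knockdown stressed replicate 4, of the high set, and 1093 without LacZ stressed replicate 4, the sample lowest in Gzmb. The genes called lower numbered 193 to 247 without any 1 of LacZ stressed replicate 2, LacZ unstressed replicates 4, 5 and 7, Slit1 knockdown unstressed replicate 5 or Slit1 knockdown stressed replicate 4, and 640 without Slit1 knockdown unstressed replicate 2. Those called higher numbered 694 without LacZ unstressed replicate 7. Without the bone-rich and the striatum-rich sample the count was 1155, with 847 higher. The study groups are spread unevenly over the sets, and with the study group as covariate 486 genes were called, 411 higher and 75 lower. With the GC slope of each sample as covariate 6147 of the 19170 genes were called, 2991 higher and 3156 lower. In that fit the immune lists had more calls, such as 19 of 24 T cell identity genes, 11 of 11 natural killer markers, 20 of 20 interferon gamma induced genes and 26 of 26 proliferation genes, all higher.

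The 10 middle samples lie outside the contrast of high and low samples, but they were ranked by the same Gzmb values and entered the spread of the fit, so what follows describes them and is no independent test. No gene passed (0%) when each was tested against log2 Gzmb over these 10 samples with edgeR, while 1319 genes had an unadjusted p under 0.05. A positive slope was found for 862 of the 1046 genes called higher (82.4%), against 47.4% of all genes tested. A negative slope was found for 356 of the 389 genes called lower (91.5%), against 52.6% of all genes. Genes that share a cell type vary together, so these shares are descriptions and not counts of separate events. With the GC slope of each sample in the same fit, 5 genes passed, 3707 had an unadjusted p under 0.05, and the shares were 96.7% and 92.8%, against 50.9% of all genes with a positive slope.

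The difference between high and low samples had the same direction within each of the 4 study groups for 1019 of the 1046 genes called higher (97.4%, against 14.4% of all genes) and 365 of the 389 called lower (93.8%, against 13.3%). These are the samples that gave the calls, and the shares count direction only, whatever its size. They therefore cannot show whether a single group carried a call. The LacZ unstressed group held 1 high sample, and the Slit1 knockdown stressed group held 1 low sample, the bone-rich one. No gene passed (0%) the edgeR test of whether the difference itself depended on virus, with 397 genes at an unadjusted p under 0.05. None passed (0%) for dependence on stress either, with 186 at an unadjusted p under 0.05.

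The lymphocyte genes come first, because Gzmb and most of them are made in the same cells, and their values describe the sets and lend no support to them. Of 25 tested effector genes of cytotoxic cells other than Gzmb, 15 were called higher and none lower, with a median log2 fold change of 1.58. The 15 include the chemokine genes Ccl3 and Ccl4, which are counted again with the chemokines below. Gzma, granzyme A, ranged from 24.3 to 94.5 CPM with a median of 60.2 in the Gzmb-high samples, and from 0.453 to 20.7 with a median of 11.6 in the Gzmb-low samples. The sets did not overlap, and the log2 fold change was 2.44 ± 0.40 (SE; adjusted p = 9.04e-04). Prf1, perforin, ranged from 5.22 to 12.1 CPM (median 6.47) in the high set and from 0.136 to 3.65 (median 2.27) in the low set. Those ranges also stayed apart, and its log2 fold change was 1.91 ± 0.38 (adjusted p = 0.00353). Gzmc, Fasl, Klrd1, Klrk1, Klrc1 and Tbx21, the transcription factor T-bet, were among the other genes called higher. Gzmk, at a log2 fold change of 0.52, and Gzmm, at -0.06, were not called. Without the 3 samples lowest in Gzmb, 5 of the 25 were called, and 6 with the study group as covariate.

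Of 24 tested genes of T cell identity and receptor signalling, 7 were called higher, none lower, and the median was 1.36. Cd8a, at chr6:71373427-71379173, had 9.69 to 18.95 CPM (median 14.5) in the high set against 0.0453 to 15.7 (median 3.28) in the low set. Its log2 fold change of 1.41 ± 0.61 did not pass (adjusted p = 0.168). By the raw CPM used for ranking, the highest Cd8a of all 28 samples, 27.5, was in a middle sample, Slit1 knockdown unstressed replicate 6. Slit1 knockdown unstressed replicate 3 had 16.0 CPM of Cd8a while in the Gzmb-low set. Cd4 (1.56 ± 0.50, adjusted p = 0.0512) and Cd3e (1.37 ± 0.50, adjusted p = 0.0912) did not pass either, and 44% of the Cd3e span overlaps another gene. No member of this T cell list was called without the 3 samples lowest in Gzmb or with the study group as covariate, and 2 were called without the bone-rich and striatum-rich pair.

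Of 17 tested genes of T cell activation and inhibition, most of them receptors, 8 were called higher, none lower, and the median was 1.49. Their summed level was not higher, at 544.5 to 898.8 CPM (median 614.6) in the high set and 324.6 to 777.9 (median 645.0) in the low set. The mean log2 deviation of the list, which weighs each gene alike, was 0.125 to 1.09 against -1.92 to 0.0863. Ctla4, which restrains T cell activation, ran from 3.34 to 13.1 CPM (median 8.01) in the high set and from 0.295 to 4.42 (median 2.09) in the low set (log2 fold change 1.77 ± 0.35, adjusted p = 0.00313). The anti-inflammatory cytokine gene Il10 ran from 2.17 to 5.06 CPM against 0 to 1.91, with no overlap (2.28 ± 0.51, adjusted p = 0.00720). Tigit, Icos and Havcr2, which encodes TIM-3, were also called, whereas Pdcd1 (1.89), Lag3 (0.86) and Tox (-0.36) were not. Of the 17, 3 were called without the 3 lowest samples and 4 with the study group as covariate.

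Natural killer cells also make granzyme B, and 9 of their 11 tested marker genes were called higher with a median of 1.82. Their summed level was 94.6 to 178.4 CPM in the high set and 27.9 to 71.2 in the low set. Ncr1, which encodes the natural killer receptor NKp46, ran from 1.53 to 8.62 CPM (median 4.55) against 0.408 to 3.72 (median 1.84), with overlap (1.52 ± 0.46, adjusted p = 0.0384). Klre1 ran from 2.55 to 16.8 CPM (median 10.8) against 0.317 to 4.80 (median 2.64), and its log2 fold change was 1.82 ± 0.49 (adjusted p = 0.0210). In the middle samples their slopes were mostly negative. There 9 of the 11 had a negative slope on log2 Gzmb, with a median slope of -1.39, while 23 of the 24 T cell identity genes had a positive slope, with a median of 1.24. No natural killer marker was called without the 3 lowest samples or with the study group as covariate, and 3 were called without the bone-rich and striatum-rich pair. Which of the lymphocytes made the Gzmb counts of a sample was not tested.

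Of 11 tested B cell and plasma cell genes 1, Fcrla, was called higher (1.61 ± 0.39, adjusted p = 0.0125), and none was without the 3 lowest samples or with the study group as covariate. Their summed level was 90.3 to 139.8 CPM in the high set and 71.2 to 127.2 in the low set. Jchain, of antibody-secreting cells, had a log2 fold change of -1.95 and was not called. Ms4a1 was listed at 0 in every sample and lies inside another gene, where fragments were counted for neither, so its level is not known.

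**Figure D2:**
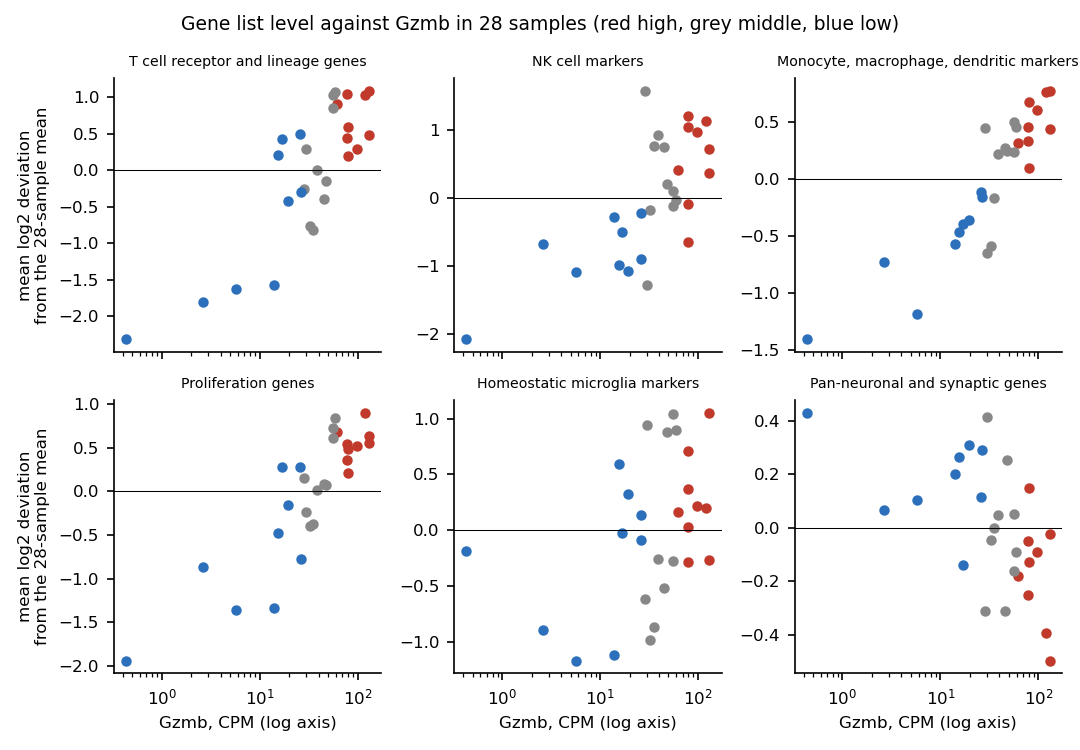
Mean log2 deviation of the tested members of 6 gene lists from their 28-sample mean (vertical axis) against Gzmb in CPM on a log axis, with 1 point per sample coloured by set. Monocyte, macrophage and dendritic cell markers separate all 9 Gzmb-high from all 9 Gzmb-low samples, proliferation genes do so for 8 of the 9 high samples, and homeostatic microglia markers overlap widely.

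Genes of monocytes and macrophages, myeloid cells that enter tissue from blood, were higher in the Gzmb-high samples. Of 22 tested markers of monocytes, macrophages and dendritic cells, 9 were called higher and 1 lower, with a median of 1.28. The mean log2 deviation of the list was 0.0943 to 0.772 in the high set and -1.41 to -0.119 in the low set, so the 9 high samples all lay above the low ones. Ccr2, the receptor by which monocytes follow CCL2 into tissue, ran from 54.6 to 206.6 CPM (median 142.7) in the high set and from 6.23 to 78.0 (median 36.3) in the low set (1.87 ± 0.41, adjusted p = 0.00640). Ly6c2, which marks inflammatory monocytes, ran from 31.8 to 73.5 CPM (median 44.2) against 0.521 to 23.6 (median 13.9) and did not overlap (2.08 ± 0.45, adjusted p = 0.00638). Leaving out the 3 lowest samples, 6 of the 22 were called higher, and 7 with the study group as covariate.

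The strongest of these myeloid genes was Arg1, arginase 1, which breaks down arginine and is made by macrophages of the wound-healing kind. It lies at chr10:24915221-24927484. Its level was 11.2 to 52.9 CPM (median 23.8) in the high set and 0.751 to 6.36 (median 2.11) in the low set. The lowest high sample was thus above every low sample, and the log2 fold change of 3.43 ± 0.49 is 10.8-fold (adjusted p = 4.47e-04). The highest Arg1 of all was in a middle sample, Slit1 knockdown stressed replicate 6, and over the middle samples the slope on log2 Gzmb was -0.41. Chil3, a chitinase-like protein of macrophages, ran from 11.99 to 51.97 CPM (median 38.5) against 0.385 to 15.2 (median 8.23; 2.24 ± 0.45, adjusted p = 0.00398). Plac8 (1.93), Ms4a4c (2.08), Ms4a6c (1.70) and Ms4a7 (1.59) were called as well. Ms4a6d, at chr19:11586604-11604849 and not on the list, ran from 30.8 to 92.9 CPM (median 64.6) against 3.40 to 25.5 (median 15.9) with no overlap (2.01 ± 0.31, adjusted p = 6.95e-04).

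Markers of the macrophages that reside at brain borders were divided. Ms4a7, named above, and F13a1, coagulation factor XIII A, were called higher, and F13a1 ran from 13.9 to 31.96 CPM in the high set and from 5.12 to 10.97 in the low set with no overlap (1.31 ± 0.23, adjusted p = 0.00150). Lyve1 was called lower (-1.39), Mrc1, the mannose receptor, had a log2 fold change of -0.72 and Cd163 one of -0.54, neither called. No gene of the list of 22 was called lower without the bone-rich and striatum-rich pair or without the 3 lowest samples. With the study group as covariate, 1 was called lower. Conventional dendritic cell genes such as Xcr1 (0.40), Flt3 (0.38) and Zbtb46 (-0.33) were not called. Neutrophil markers, 7 of which were tested, summed to 12.6 to 38.8 CPM (median 23.5) in the high set. In the low set they summed to 5.87 to 20.2 CPM, apart from 136 in Slit1 knockdown stressed replicate 2, with a median of 14.8. S100a8 ran from 0.133 to 2.21 CPM in the high set and from 0.0341 to 7.53 in the low set. The only gene of the 7 called in the main comparison, Mmp9, is taken up with the bone genes below. Without the bone-rich and striatum-rich pair, 1 of the 7 was called higher and none lower, with a median of 0.90.

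Microglia, the resident macrophages of brain, were represented by 14 tested homeostatic markers, of which 2 were called higher and none lower, with a median of 0.49. Tmem119 ran from 2.96 to 21.9 CPM (median 6.14) in the high set and from 1.12 to 14.1 (median 4.87) in the low set (0.48 ± 0.60, adjusted p = 0.746). Cx3cr1 ran from 49.2 to 71.9 CPM (median 60.2) against 35.0 to 75.4 (median 51.3; 0.21 ± 0.17, adjusted p = 0.521), and Sall1 from 11.7 to 15.3 against 9.33 to 16.9 (0.10 ± 0.12, adjusted p = 0.739). The sets overlapped for all 3 genes. P2ry12 was listed at 0 in every sample and lies inside another gene. The 2 called genes, Aif1 (1.22 ± 0.29, adjusted p = 0.0101) and C1qc (0.98 ± 0.28, adjusted p = 0.0291), are made by macrophages of other origin too, and neither was called without the 3 lowest samples, while 1 of the 14 was called with the study group as covariate.

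Of 23 tested genes of reactive microglia and phagocytosis, 9 were called higher with a median of 1.01. They included the Fc receptors Fcgr1 (1.30), Fcgr2b (1.65) and Fcgr3 (0.98) with their shared signalling chain Fcer1g (1.48). Lgals3, galectin-3, ran from 22.4 to 55.0 CPM (median 30.8) in the high set and from 0.498 to 13.2 (median 9.57) in the low set, without overlap (2.14 ± 0.42, adjusted p = 0.00315). Fcgr2b, the inhibitory Fc receptor, ran from 47.1 to 92.9 CPM (median 69.0) against 7.18 to 35.2 (median 22.9; 1.65 ± 0.24, adjusted p = 4.77e-04). Trem2, Apoe, Lpl and Spp1, markers of microglia around plaques and myelin debris, did not pass. Trem2 had 0.21, Apoe 0.14, Lpl -0.40 and Spp1 -0.68. Spp1 is also on the list of bone and osteoclast genes, whose lower levels rested on 1 bone-rich sample of the low set. Of the 23, 4 were called without the 3 lowest samples and 5 with the study group as covariate.

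Interferon gamma genes leaned higher, though not all were called. Ifng itself ran from 1.98 to 5.91 CPM (median 4.60) in the high set and from 0.0453 to 5.24 (median 0.929) in the low set (1.62 ± 0.51, adjusted p = 0.0495), and 56% of its span overlaps another gene. Its call was kept in 3 of 18 fits that left out a sample, and the highest adjusted p among them was 0.0983, without LacZ unstressed replicate 7. Of 20 tested genes that interferon gamma induces, 9 were called higher and none lower, all 20 lay above 0, and the median was 1.30. Nos2, the inducible nitric oxide synthase, ran from 8.43 to 46.5 CPM (median 15.7) against 0.178 to 8.42 (median 1.30), so the sets met without overlapping (3.21 ± 0.60, adjusted p = 0.00267). Cxcl9 ran from 49.2 to 152 CPM (median 104) against 1.04 to 63.5 (median 30.2; 1.82 ± 0.43, adjusted p = 0.0103). Ido1, which degrades tryptophan, had 2.28 ± 0.45 (adjusted p = 0.00313) and Ubd, a ubiquitin-like protein, 2.41 ± 0.55 (adjusted p = 0.00790).

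Cd274, which encodes PD-L1 and is also induced by interferon gamma, missed the threshold. It had 80.0 to 186 CPM against 5.75 to 207 (1.20 ± 0.43, adjusted p = 0.0831), with the highest of these 18 values in the low set. In the middle samples 10 of the 20 genes had a positive and 10 a negative slope on log2 Gzmb, with a median of 0.01. Of the 20, 4 were called without the 3 lowest samples and 4 with the study group as covariate.

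Of 31 tested type I interferon response genes, 10 were called higher, none lower, all 31 had a log2 fold change above 0, and the median was 1.11. Ifi27l2a, at chr12:103442167-103443680, had the smallest p of all genes called higher. It ran from 17.8 to 45.4 CPM (median 23.7) in the high set and from 5.96 to 12.1 (median 9.51) in the low set, with no overlap (1.58 ± 0.21, adjusted p = 4.47e-04). Oas3, an antiviral enzyme that senses double-stranded RNA, ran from 9.80 to 32.9 CPM (median 16.3) against 0.340 to 19.6 (median 4.19), and 2 high samples lay above all low ones (1.68 ± 0.42, adjusted p = 0.0154). Isg15 ran from 3.27 to 46.2 CPM against 1.86 to 23.5 (1.40 ± 0.57, adjusted p = 0.139). Slit1 knockdown unstressed replicate 2, low in Gzmb, held the most Oas3 and Isg15 of the 9 low samples. Of the 31, 2 were called without the 3 lowest samples and 3 with the study group as covariate.

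The promoters of interferon and NF-kappaB target genes are shown for 3 of the genes called higher, where their transcription factors are known to bind. Each stretch is a RefSeq window of GRCm38.p6 from 250 bases before to 50 bases after the transcription start, read 5′ to 3′ on the strand of the gene, and capitals mark the motif found. Gbp2 (chr3:142620413-142620712, plus strand) and Oas3 (chr5:120777610-120777909, minus strand) each hold 1 match to the interferon-stimulated response element, searched as GAAANNGAAA on both strands. In Gbp2 the match is on the opposite strand, begins at base -59 and reads TTTCACTTTC, and in Oas3 it begins at base -75 and reads GAAAACGAAA. Nfkbia (chr12:55492598-55492897, minus strand) holds 1 match to the NF-kappaB site, searched as GGGNNTTTCC on both strands, which is on the opposite strand, begins at base -29 and reads GGAAATTCCC.
Gbp2: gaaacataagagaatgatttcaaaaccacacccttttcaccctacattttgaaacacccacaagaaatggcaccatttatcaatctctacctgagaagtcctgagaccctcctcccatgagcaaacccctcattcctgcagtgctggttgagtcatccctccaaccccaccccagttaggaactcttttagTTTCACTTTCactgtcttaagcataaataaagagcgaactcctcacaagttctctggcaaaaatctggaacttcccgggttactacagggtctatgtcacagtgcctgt
Oas3: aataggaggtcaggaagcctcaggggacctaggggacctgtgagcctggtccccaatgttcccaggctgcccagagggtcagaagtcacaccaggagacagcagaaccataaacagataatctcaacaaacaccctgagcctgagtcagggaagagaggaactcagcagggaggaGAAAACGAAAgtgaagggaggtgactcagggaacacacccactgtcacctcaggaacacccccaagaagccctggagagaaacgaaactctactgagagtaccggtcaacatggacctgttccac
Nfkbia: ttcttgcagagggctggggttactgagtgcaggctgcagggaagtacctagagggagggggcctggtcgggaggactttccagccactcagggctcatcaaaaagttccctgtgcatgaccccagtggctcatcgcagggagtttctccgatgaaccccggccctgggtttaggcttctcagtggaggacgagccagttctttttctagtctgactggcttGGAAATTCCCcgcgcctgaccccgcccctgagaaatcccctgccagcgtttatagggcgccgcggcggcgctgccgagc

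Among genes with a window in the table, the interferon-stimulated response element was found in 91 of 776 called higher (11.7%), 8 of 274 called lower (2.92%) and 516 of 13231 tested (3.90%). The NF-kappaB motif was found in 27 of the 776 (3.48%), 6 of the 274 (2.19%) and 267 of the 13231 (2.02%). The interferon gamma activated site, searched as TTCNNNGAA, was found in 82 of the 776 (10.6%), 22 of the 274 (8.03%) and 1118 of the 13231 (8.45%). A gene counted once if any of its windows held the motif. A match describes letters only, and binding was not measured.

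The levels of these 3 genes were as follows. Gbp2, a guanylate-binding protein of interferon-stimulated cells, ran from 312 to 882 CPM (median 707) in the high set and from 17.8 to 523 (median 168) in the low set (1.602 ± 0.43, adjusted p = 0.0200). Its highest level of all 28 samples was in a middle sample, LacZ unstressed replicate 6. Nfkbia, which encodes the inhibitor that shuts NF-kappaB off again, ran from 18.4 to 34.4 CPM (median 23.8) against 6.83 to 14.0 (median 13.4) and did not overlap (1.09 ± 0.17, adjusted p = 7.50e-04).

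Peptide presentation to CD8 T cells rests on MHC class I, for which 10 of 18 tested genes were called higher, none lower, with a median of 1.24. H2-M3, a class I molecule that presents N-formyl peptides, ran from 12.7 to 26.1 CPM (median 15.2) in the high set and from 3.17 to 10.6 (median 7.02) in the low set (1.27 ± 0.19, adjusted p = 4.77e-04). H2-K1 (1.41) and H2-D1 (1.22), the classical molecules, and the proteasome activators Psme1 (1.17) and Psme2 (1.20) were called. H2-Q4, H2-Q6 and H2-Q7 were called too, but these are near-identical copies whose fragments may be split among them. B2m, the shared light chain, was listed at 0 in every sample and lies inside another gene. Without the 3 lowest samples, 4 of the 18 were called, and 5 with the study group as covariate.

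For MHC class II, which presents to CD4 T cells, 6 of 14 tested genes were called higher, with a median of 1.34. H2-DMb1 and Ctss, which help load peptides, had 1.48 ± 0.38 (adjusted p = 0.0165) and 0.98 ± 0.19 (adjusted p = 0.00313). The co-stimulatory genes Cd86 (1.13) and Cd40 (1.66) were called. H2-Aa ran from 64.0 to 153 CPM (median 81.6) against 5.49 to 74.4 (median 35.9) and missed the threshold (1.38 ± 0.44, adjusted p = 0.0505), as did Cd74 (1.44). Of the 14, 1 was called without the 3 lowest samples and 1 with the study group as covariate.

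**Figure D3:**
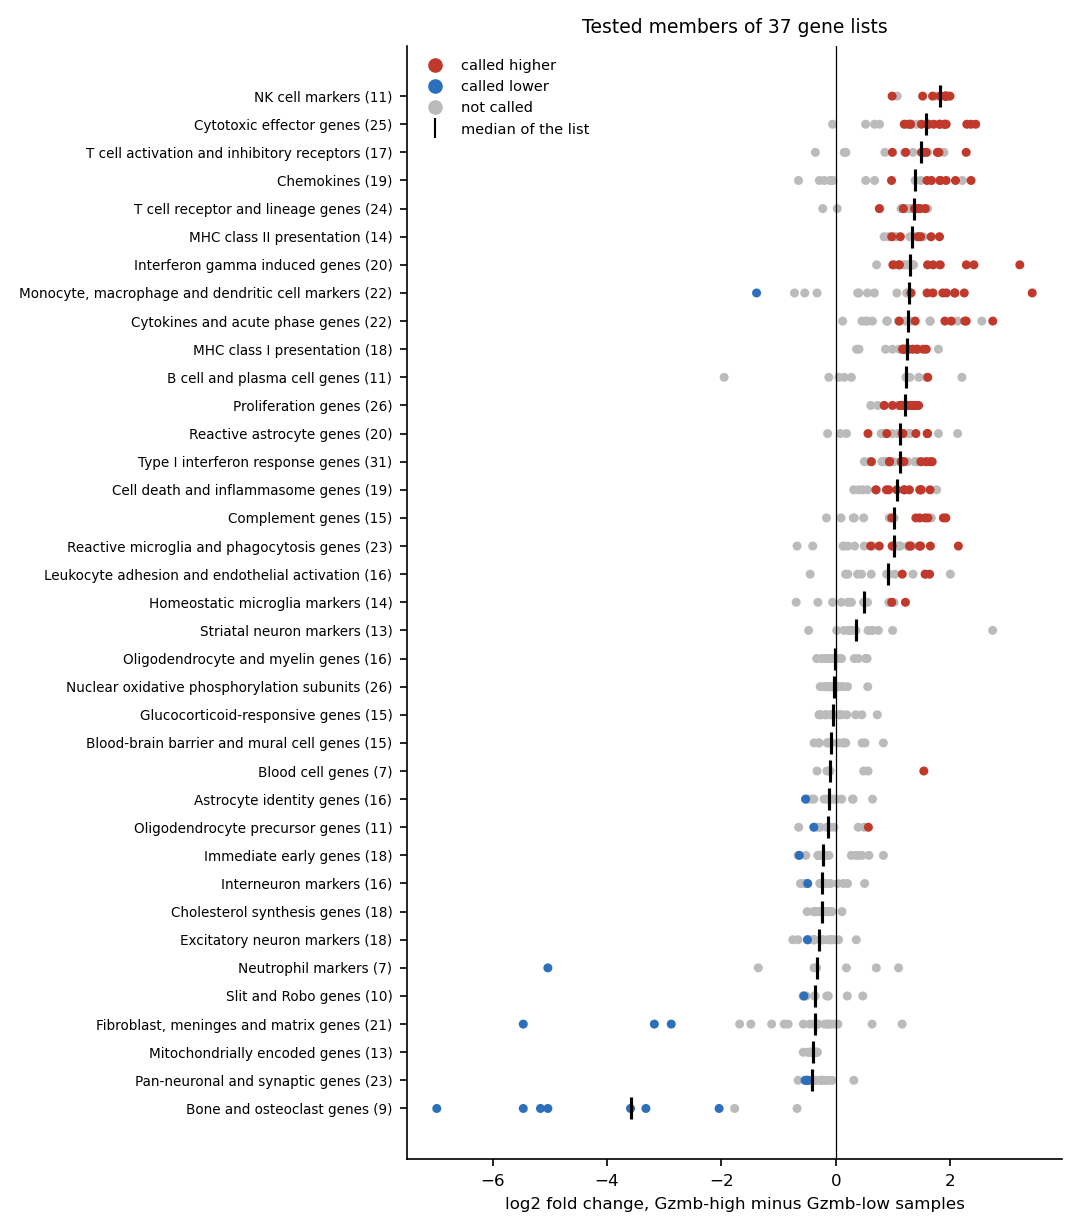
Log2 fold change between Gzmb-high and Gzmb-low samples for each tested member of 37 gene lists (horizontal axis), with the number tested in brackets. Red points were called higher, blue lower and grey not called, and black ticks are list medians, which run from 1.82 for natural killer cell markers to -3.59 for bone genes, the latter carried by 1 sample.

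Chemokines, which guide leukocytes, were higher for 8 of 19 tested genes, with a median of 1.38. Ccl4, at chr11:83662584-83664683, ran from 3.99 to 7.71 CPM (median 5.33) in the high set and from 0.159 to 2.21 (median 1.04) in the low set, with no overlap (2.36 ± 0.34, adjusted p = 4.47e-04). Ccl3 ran from 3.38 to 9.10 CPM (median 4.52) against 0.205 to 2.43 (median 1.32; 1.93 ± 0.31, adjusted p = 9.04e-04). Both are made by activated T cells and by myeloid cells. The monocyte attractants Ccl7 (2.09), Ccl8 (1.59) and Ccl12 (0.97) and the CXCR6 ligand Cxcl16 (1.67) were called. Cxcl12 (-0.29), Cxcl14 (-0.20) and Cx3cl1 (-0.10), which brain cells make at rest, were not. Without the 3 lowest samples, 3 of the 19 were called, and 4 with the study group as covariate.

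Cytokine and acute phase genes were higher for 7 of 22, with a median of 1.25. Il1b (2.25) and Tnf (2.02), both inflammatory cytokines, were called beside Il1rn, the antagonist of the interleukin-1 receptor (2.74 ± 0.61, adjusted p = 0.00703), and Il10. Il1rn ran from 14.4 to 54.0 CPM (median 43.1) in the high set and from 0.0680 to 17.7 (median 3.13) in the low set. Socs3, a feedback inhibitor of cytokine receptors, ran from 11.2 to 43.7 CPM against 0.929 to 13.03 (1.91 ± 0.37, adjusted p = 0.00313). Il6 (0.90), Lcn2 (2.13) and Saa3 (2.55) were not called. Of the 22, 4 were called without the 3 lowest samples and 5 with the study group as covariate.

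Complement genes were higher for 7 of 15, with a median of 1.02. C5ar1, the receptor for the attractant C5a, ran from 4.50 to 8.69 CPM (median 5.75) in the high set and from 0.478 to 2.56 (median 2.02) in the low set (1.92 ± 0.31, adjusted p = 8.96e-04). C3ar1, the receptor for C3a, ran from 32.5 to 62.1 CPM against 5.94 to 32.2, the 2 ranges meeting without overlap (1.47 ± 0.28, adjusted p = 0.00303). C3 (1.67) and C4b (0.49) were not called, and 95% of the span of C1s1, which was called (1.88), overlaps another gene. Of the 15, 2 were called without the 3 lowest samples and 4 with the study group as covariate.

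Of 19 tested genes of cell death and the inflammasome, 11 were called higher, all 19 lay above 0, and the median was 1.06. Naip2, a sensor of bacterial proteins, ran from 41.7 to 87.2 CPM (median 55.9) in the high set and from 5.91 to 34.7 (median 18.9) in the low set (1.46 ± 0.24, adjusted p = 9.04e-04). Casp8, which starts death by receptors such as Fas, ran from 35.1 to 75.0 CPM (median 53.2) against 9.90 to 45.8 (median 21.8; 1.19 ± 0.24, adjusted p = 0.00335). Fas (1.20), Mlkl (1.48), which executes necroptosis, and Casp1 (1.28), the protease of the inflammasome, were called. Bax (0.40), which permeabilises the mitochondrial membrane, was not. Of the 19, 2 were called without the 3 lowest samples and 4 with the study group as covariate.

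Cell division genes were mostly higher in the Gzmb-high samples. Of 26 tested proliferation genes, 17 were called higher, all 26 lay above 0, and the median was 1.21. Ccnb1, cyclin B1, ran from 9.33 to 18.04 CPM (median 13.9) in the high set and from 1.84 to 11.5 (median 5.06) in the low set, so 8 of 9 high samples lay above every low one (1.34 ± 0.30, adjusted p = 0.00803). Rrm2, which supplies DNA building blocks, ran from 11.6 to 27.5 CPM (median 19.2) against 1.63 to 16.1 (median 5.67; 1.45 ± 0.33, adjusted p = 0.00882). Mki67 (1.22) and Top2a (1.40) were called. Exo1, a DNA repair nuclease, ran from 3.82 to 5.75 CPM against 1.59 to 3.27 with no overlap (1.05 ± 0.16, adjusted p = 6.95e-04). In the middle samples 25 of the 26 had a positive slope on log2 Gzmb, with a median of 1.04. Without the 3 lowest samples none of the 26 was called, with a median of 0.90, while 15 were called without the bone-rich and striatum-rich pair and 4 with the study group as covariate. Which cells divided was not tested.

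**Figure D4:**
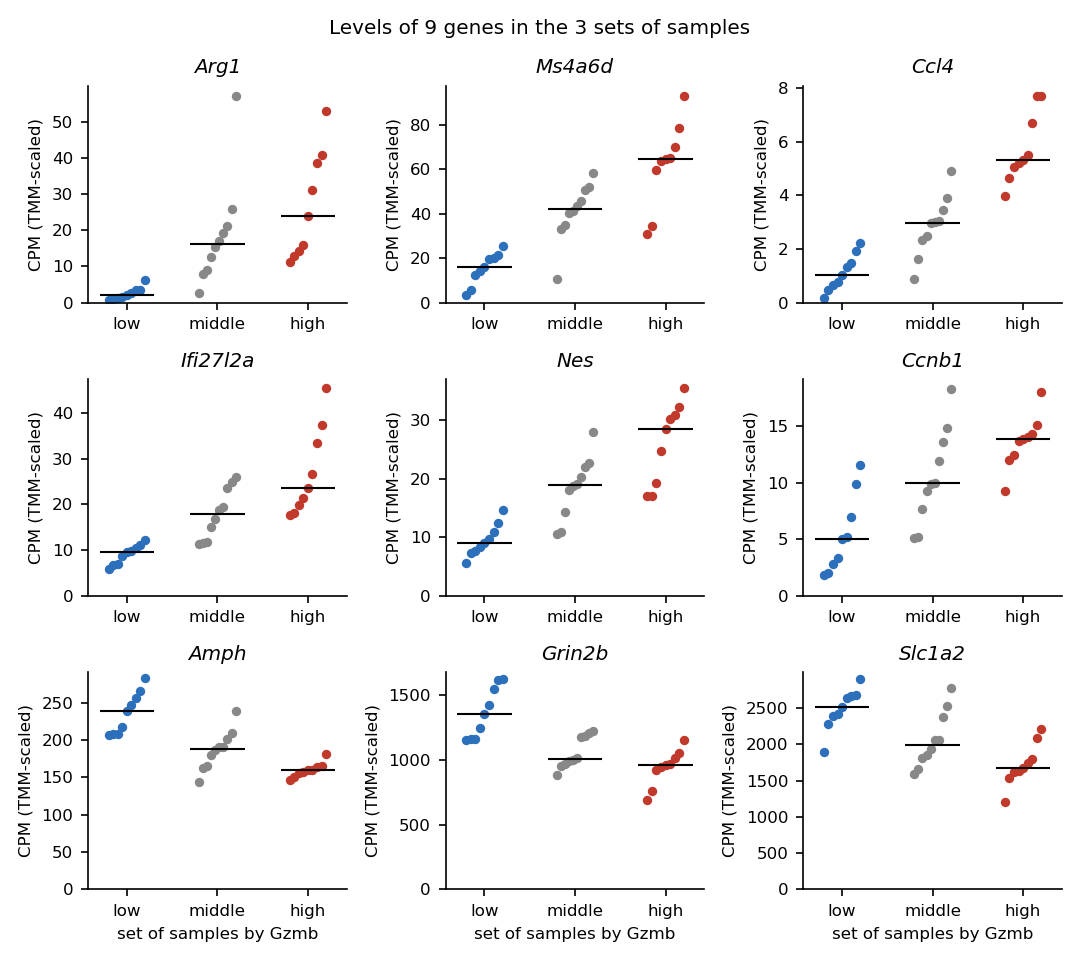
Levels of 9 genes in TMM-scaled CPM (vertical axes from 0) in the Gzmb-low (9), middle (10) and Gzmb-high (9) samples, with 1 point per sample and a line at the median. Arg1, Ms4a6d, Ccl4, Ifi27l2a and Nes are higher in every Gzmb-high than in every Gzmb-low sample, Amph is lower in every one, and Ccnb1, Grin2b and Slc1a2 overlap in part.

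Astrocytes were covered by 16 identity genes, of which 1 was called, lower, with a median of -0.11. That gene, Slc1a2, encodes the main glutamate transporter of astrocytes. It ran from 1201 to 2213 CPM (median 1670) in the high set and from 1898 to 2908 (median 2521) in the low set (-0.53 ± 0.12, adjusted p = 0.00973), and was not called without the 3 lowest samples (adjusted p = 0.119) or with the study group as covariate. Of the 16, 5 were called lower and 2 higher with the GC slope as covariate, against 3156 and 2991 of all 19170 genes. Aqp4, the astrocyte water channel, ran from 227 to 556 CPM against 175 to 536 (0.30 ± 0.25, adjusted p = 0.555). Of 20 tested genes of reactive astrocytes, 7 were called higher, with a median of 1.12. Vim, an intermediate filament protein, ran from 128 to 255 CPM (median 184) against 24.6 to 143 (median 92.5; 1.17 ± 0.25, adjusted p = 0.00513). Myeloid cells and lymphocytes make several of these 7, such as Srgn and Gbp2, and Gfap was listed at 0 in every sample and lies inside another gene. Of the 20, 2 were called without the 3 lowest samples and 3 with the study group as covariate.

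Nes, nestin, an intermediate filament of dividing glia and of vessel cells, was among the 3 genes with the smallest p. It lies at chr3:87971078-87980451 and ran from 17.0 to 35.6 CPM (median 28.6) in the high set and from 5.60 to 14.6 (median 8.998) in the low set (1.46 ± 0.20, adjusted p = 4.47e-04). Glrx, glutaredoxin, ran from 25.1 to 36.7 CPM against 10.7 to 21.3 (0.84 ± 0.12, adjusted p = 4.47e-04). Bst1, an ectoenzyme of myeloid cells, ran from 3.89 to 11.3 CPM against 0.363 to 3.37 (2.37 ± 0.35, adjusted p = 4.92e-04). Tlr6, a receptor for bacterial lipopeptides, had 1.32, Tnfsf9, the ligand of 4-1BB, 1.87, and Jpt2 0.87. All 15 genes with the smallest p among those called higher had sets that did not overlap, against 0.803% of all genes tested. All 15 were called without the 3 lowest samples, where 231 of 19170 genes were called higher. The 15 were picked by p in these same samples, so both counts describe that choice and lend it no support.

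Few genes of vessel cells were called. None of 15 tested barrier and mural cell genes was called, with a median of -0.08, and Cldn5, a tight junction protein, had 0.51. Of the 15, 2 were called higher and 3 lower with the GC slope as covariate, against 2991 and 3156 of all 19170 genes. Of 16 genes of leukocyte adhesion, 3 were called higher, with a median of 0.92. Vcam1, the endothelial ligand of integrin VLA-4, ran from 91.0 to 269 CPM (median 190) against 30.9 to 129 (median 86.5; 1.16 ± 0.27, adjusted p = 0.0101). The other pair, Itgal (1.64) and Itgb2 (1.56), form the leukocyte integrin LFA-1, and Itgal kept its call in 9 of 18 fits that left out a sample. None of the 16 was called without the 3 lowest samples, and 1 was with the study group as covariate. Hemoglobin genes were not called, and Ptprc, the CD45 gene of all leukocytes, was (1.54 ± 0.36, adjusted p = 0.00973).

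None of 16 tested myelin genes was called, with a median of -0.01, and Mbp ran from 59.4 to 159 CPM in the high set and from 53.7 to 161 in the low set (-0.20 ± 0.28, adjusted p = 0.794). Of 11 tested precursor genes, Olig2 was called higher (0.57 ± 0.13, adjusted p = 0.00784) and Tnr, a matrix protein of perineuronal nets, lower (-0.39 ± 0.10, adjusted p = 0.0182).

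Neuronal genes leaned lower by small amounts, and how many passed depended on the fit. Of 23 tested pan-neuronal and synaptic genes, 3 were called lower and none higher, 22 lay below 0, and the median was -0.42. Grin2b, the NMDA receptor subunit GluN2B, lies at chr6:135713233-136173511. It ran from 687 to 1154 CPM (median 964) in the high set and from 1152 to 1631 (median 1359) in the low set, with 8 of 9 high samples below every low one (-0.54 ± 0.11, adjusted p = 0.00396). Grin2a, the subunit GluN2A, ran from 489 to 724 CPM against 673 to 1146 (-0.51 ± 0.13, adjusted p = 0.0167), and Syn2, synapsin 2, from 268 to 385 against 336 to 594 (-0.49 ± 0.13, adjusted p = 0.0174). The summed level of the list was 8270 to 12747 CPM in the high and 11619 to 19657 in the low set. With the GC slope as covariate 21 of the 23 were called lower, with a median of -0.40, against 3156 of all 19170 genes. Only 1 was called lower without the 3 lowest samples, and 1 with the study group as covariate.

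Of 18 excitatory neuron markers, 1 was called lower, Neurod2 (-0.50 ± 0.16, adjusted p = 0.0479), which kept its call in 4 of 18 fits that left out a sample, and the median was -0.30. Slc17a7, the vesicular glutamate transporter of cortical neurons, ran from 22.5 to 235 CPM against 31.7 to 239 (-0.15 ± 0.58, adjusted p = 0.944). Of 16 interneuron markers, 1 was called lower, Reln, which encodes the secreted protein reelin (76.7 to 116 CPM against 96.2 to 144; -0.49 ± 0.10, adjusted p = 0.00507), and the median was -0.24. Gad1 had -0.18 and Gad2 0.13. With the GC slope as covariate 6 excitatory markers were called lower and 1 higher, and 4 interneuron markers were called lower. Over all 19170 genes, that fit called 3156 lower and 2991 higher.

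The genes with the smallest p among those called lower were a mixed group. D10Wsu102e ran from 52.4 to 79.1 CPM (median 72.3) in the high set and from 85.9 to 129 (median 110) in the low set (-0.60 ± 0.09, adjusted p = 4.47e-04). Amph, amphiphysin, which acts in the retrieval of synaptic vesicles, lies at chr13:18948205-19150921 and ran from 146 to 182 CPM (median 160) against 206 to 284 (median 239; -0.57 ± 0.09, adjusted p = 8.81e-04). Prickle2 ran from 284 to 377 CPM against 393 to 513 (-0.46 ± 0.09, adjusted p = 0.00290). Ryr2, a calcium release channel, had -0.54, Grin3a, another NMDA receptor subunit, -0.45, and Myt1l, a transcription factor of neurons, -0.47. Of these 15 genes, 8 had sets that did not overlap, against 0.177% of all genes tested. Without the 3 lowest samples 6 were called, where 25 of 19170 genes were called lower. They too were picked by p in these same samples, so both counts describe that choice.

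Few genes of neuronal activity, stress hormones and metabolism were called in the comparison without covariates. Of 18 immediate early genes, Egr4 alone was called, lower (-0.64 ± 0.18, adjusted p = 0.0272), and Fos had 0.27. None of 15 glucocorticoid-responsive genes was called, with a median of -0.05 and Fkbp5 at 0.35. None of 26 nuclear subunits of oxidative phosphorylation (median -0.04), 13 mitochondrially encoded genes (median -0.41) or 18 cholesterol synthesis genes (median -0.24) was called, although all 13 of the mitochondrial genes lay below 0. In the Slit and Robo family of axon guidance ligands and receptors, 1 of 10 genes was called. Robo1, a Slit receptor, ran from 143 to 292 CPM (median 211) in the high set and from 235 to 456 (median 322) in the low set (-0.56 ± 0.18, adjusted p = 0.0494), and kept its call in 8 of 18 fits that left out a sample. Slit1 ran from 9.28 to 37.2 CPM against 13.5 to 59.9 (-0.36, adjusted p = 0.674). With the GC slope as covariate, 3156 of all 19170 genes were called lower and 2991 higher, and the list counts stand beside that background. Called lower in that fit were 6 of the 13 mitochondrial genes and 4 of the 18 cholesterol genes. So were 6 of the 10 Slit and Robo genes and 3 of the 18 immediate early genes. In the same fit 2 immediate early genes and 1 glucocorticoid-responsive gene were called higher, and no nuclear oxidative phosphorylation gene was called.

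Bone and matrix genes called lower rested on 1 sample of the low set. Of 9 tested bone and osteoclast genes, 7 were called lower with a median of -3.59, and of 21 fibroblast, meninges and matrix genes, 3 were called lower with a median of -0.37. The summed level of the bone and osteoclast genes was 28.2 to 51.5 CPM in the high set and 8.77 to 34.9 in 8 of the low samples, but 1808 in Slit1 knockdown stressed replicate 2. Ibsp, bone sialoprotein, was at most 0.479 CPM in the high set and 0.444 in those 8 low samples, and 218 in that sample. Without it, Ibsp had a log2 fold change of 0.17 and Mmp9 one of 0.32, neither called, and no bone gene was called without the bone-rich and striatum-rich pair. In that fit none of the fibroblast, meninges and matrix genes was called lower and 2 were called higher. Of 13 striatal markers none was called, with a median of 0.35. Their summed level reached 999.6 CPM in Slit1 knockdown stressed replicate 7 and 460 to 999.6 over the high set, against 454 to 899 in the low set.

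**Figure D5:**
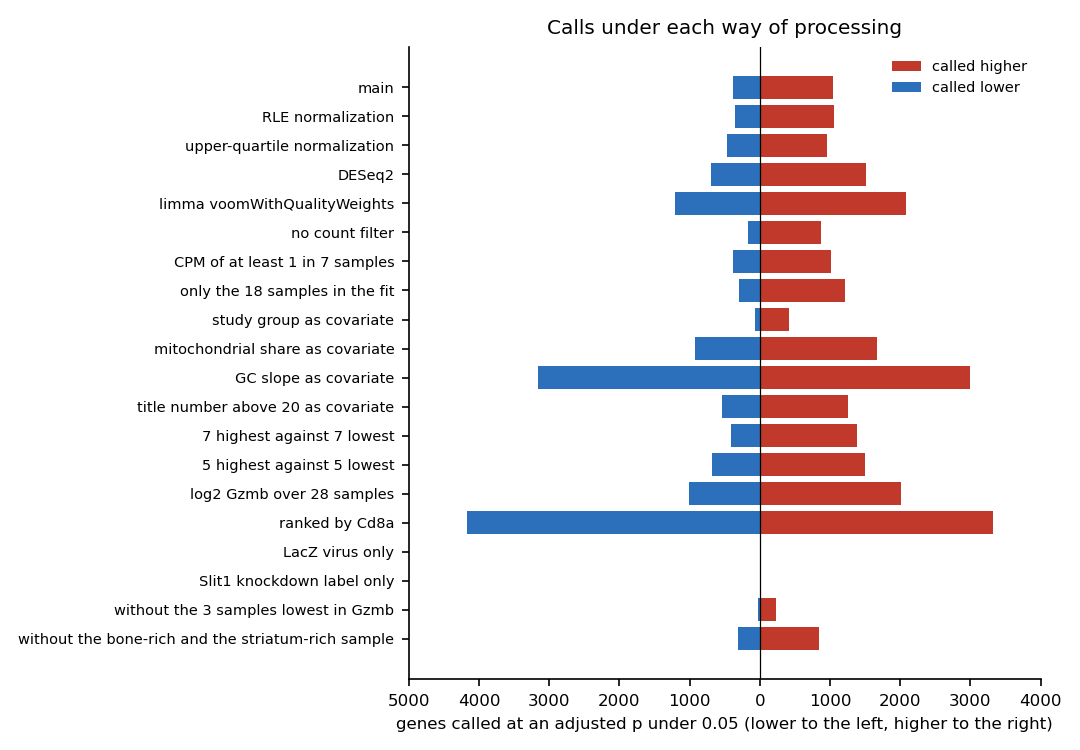
Number of genes called higher (red, to the right) and lower (blue, to the left) at an adjusted p under 0.05 for each way of processing (rows). The main comparison called 1046 higher and 389 lower, ranking by Cd8a called 3327 and 4172, and comparing within 1 virus label called 6 or fewer genes.

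Ranking the samples by Cd8a in place of Gzmb gave another picture, with 7499 genes called, 3327 higher and 4172 lower. It shared 605 of the 1046 genes called higher and 295 of the 389 called lower. The 9 samples highest and the 9 lowest in Cd8a also differed in technical measures. Their mitochondrial share was 4.83 ± 1.47% against 8.01 ± 3.27% (SD, n = 9 each; exact permutation p = 0.0135, adjusted p = 0.0404), and their GC slope was 0.239 ± 0.594 against -0.421 ± 0.581 (exact permutation p = 0.0332, adjusted p = 0.0497). The part of these measures in the Cd8a result was not tested. Within a single virus label there were too few calls to describe. Among LacZ samples 6 genes were called between the sets, with 2970 at an unadjusted p under 0.05, and among samples with the knockdown label none was called by edgeR, with 1183 at an unadjusted p under 0.05.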

How the data were processed

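RNA of 28 samples was sequenced after ribosomal depletion from 1 µg of total RNA, per the labels' protocols. The authors deposited raw counts of fragments per gene, which featureCounts 1.6.2 assigned to entire genes (Ensembl release 90, GRCm38). Per the file headers, pairs counted as fragments, strand was ignored and duplicates had been dropped. The submitters' processing notes name HISAT2, Subread and DESeq2 too. Counts over spans include introns, antisense reads cannot be told apart, and fragments in overlapping genes were counted for neither: 33 genes of the lists lie inside another gene and were at 0. The kit marked strand.

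Symbols were matched for 52403 of 52636 genes, and RefSeq gave the promoters. Genes were filtered by filterByExpr by study group (19171 kept, 19170 without Gzmb). TMM scaling preceded the robust quasi-likelihood test of edgeR 4.0.16 (R 4.3.3), fitted to all 28 samples in 3 classes, high minus low, with Benjamini-Hochberg adjustment over all genes. The 4 study groups did not enter this fit. Ranking used CPM from raw totals, and all other levels are TMM-scaled CPM. A called gene has an adjusted p under 0.05. Ranges and medians are over samples, and fold changes are log2 with their standard error. The GC slope was fitted over 14139 protein-coding genes with a mean count of at least 20. Total counts of 30.6 to 44.3 M per sample limit the precision of low genes, and p-values measure the spread between these mice, 1 sample each.

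The 37 lists (665 genes, 605 tested) and the samples were chosen with earlier results of these data known, so no list was given a test. Some genes, such as Ccl4, Il10 and Cxcl9, are on more than 1 list, so the list counts are not separate. Named were the 15 genes of smallest p in each direction (without predicted genes, pseudogenes and receptor segments), up to 4 called members per list by smallest p, and 16 genes always given (Cd8a, Cd3e, Cd4, Prf1, Ifng, Cxcl9, Cd274, H2-Aa, Isg15, Tmem119, Aif1, Slc17a7, Mbp, Aqp4, Slit1 and 1 that is not reported here). Other genes named were members of the lists chosen after their values were seen. Alternatives were other scalings, filters, tools (DESeq2 1.42.0, limma 3.58.1), covariates, set sizes, ranking by Cd8a and leaving out samples. The 3 samples lowest in Gzmb, the bone-rich and striatum-rich pair, the 2 tests of dependence on virus and on stress, and the GC slope in the middle samples were added after seeing the data. The scripts were tested on simulated data.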

Additional observations from a re-analysis of the deposited data

Results flagged for a closer look

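Within each set, a sample far from the other 8 was looked for in 240 checks, which took each of 117 named genes and 3 technical measures (total count, mitochondrial share and GC slope) in both sets, and 20 were found, all of them genes. Chance gives about 1 in 20. Levels are TMM-scaled CPM, with the next nearest sample of the set in brackets.

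In the Gzmb-low set, Slit1 knockdown stressed replicate 2 stood far above the others for 6 genes of bone and matrix: Mmp9 at 95.5 (next 0.702), Col1a1 at 633 (next 2.23), Col1a2 at 999 (next 17.8), Lox at 63.5 (next 3.65), Ibsp at 218 (next 0.444) and Ctsk at 252 (next 5.3). LacZ stressed replicate 4, which has the least Gzmb of all, stood far below the other low samples for 6 leukocyte genes: Gzma at 0.453 (next 4.24), Cd244a at 0.68 (next 3), Ctla4 at 0.295 (next 1.47), Klra3 at 0.0227 (next 0.617), Srgn at 7.39 (next 19.4) and Ptprc at 24.3 (next 117). The remaining 8 were single genes. D10Wsu102e was lowest in LacZ stressed replicate 2 of the Gzmb-high set, at 52.4 (next 66.9). Astn1 was lowest in LacZ stressed replicate 2 of the Gzmb-high set, at 226 (next 272). Ccl3 was highest in Slit1 knockdown stressed replicate 7 of the Gzmb-high set, at 9.1 (next 5.39). Socs3 was highest in LacZ stressed replicate 2 of the Gzmb-high set, at 43.7 (next 21.4). Egr4 was highest in LacZ unstressed replicate 4 of the Gzmb-high set, at 1.6 (next 1.05). Col1a2 was lowest in LacZ unstressed replicate 4 of the Gzmb-high set, at 7.12 (next 11.8). Egr4 was highest in Slit1 knockdown unstressed replicate 5 of the Gzmb-low set, at 2.39 (next 1.67). Isg15 was highest in Slit1 knockdown unstressed replicate 2 of the Gzmb-low set, at 23.5 (next 6.15).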

How the results depend on the processing

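Against 1435 calls (1046 higher, 389 lower), RLE and upper-quartile scaling and a CPM minimum of 1 in 7 samples gave counts within 1.5 times. Larger counts came from DESeq2 (2215 in all, 698 lower), limma with sample weights (3293, of which 2081 higher and 1212 lower), the mitochondrial share (2596, of which 1674 and 922) and the GC slope (6147, of which 2991 and 3156) as covariates, log2 Gzmb over 28 samples (3019, of which 2015 and 1004), 5 against 5 samples (2188, 683 lower) and ranking by Cd8a (7499, of which 3327 and 4172). Smaller counts came from no count filter (172 lower), the study group as covariate (486, of which 411 and 75), an adjusted p under 0.01 (413, of which 360 and 53), a log2 fold change of at least 1 (714, of which 684 and 30), the LacZ virus only (6 higher, 0 lower), the knockdown label only (0, with 0 higher and 0 lower) and leaving out the 3 samples lowest in Gzmb (256, of which 231 and 25). The share of calls that were higher was 72.9%, but 48.7% with the GC slope, 84.6% with the study group, 83.5% with no count filter and 44.4% when ranked by Cd8a. Leaving out 1 sample each gave 889 to 2111 calls, 694 to 1471 higher and 193 to 640 lower. The middle samples gave 0 calls, and 5 with the GC slope. By Cd8a, the differences in mitochondrial share (-3.18 percentage points) and GC slope (0.659) passed. The causes were not tested.

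Of 105 called named genes, 89 kept their call in all 18 fits without a sample, 103 with RLE scaling, 99 with DESeq2, 105 with the GC slope, 73 with the study group and 56 without the 3 samples lowest in Gzmb. Signs reversed for bone genes. Mmp9 had 0.337, Col1a1 0.389, Col1a2 0.0700, Ibsp 0.161 and Ctsk 0.102 with DESeq2, which replaces outlying counts. Leaving out 1 sample each, they ran from -5.20 to 0.321, -5.70 to 0.400, -3.33 to 0.0872, -7.28 to 0.172 and -3.48 to 0.104, the upper ends without Slit1 knockdown stressed replicate 2. They had 0.386, 0.520, 0.0784, 0.0915 and 0.176 without the bone-rich and striatum-rich pair. With 5 against 5 samples Mmp9 had 0.730, Col1a1 0.508 and Ctsk 0.0590. Over the middle samples the slope had the opposite sign for Arg1 (-0.41), Bst1 (-0.13), D10Wsu102e (0.0490), Klrb1c (-0.0459), Klre1 (-1.39), Klra9 (-1.88), Klra3 (-1.08), Ido1 (-0.17), H2-Eb2 (-0.59), Mmp9 (1.02), C1s1 (-0.66), Il1rn (-0.11), Srgn (-0.55), Gbp2 (-0.0813), Egr4 (0.0636), Col1a1 (2.52), Col1a2 (0.41), Lox (0.75), Ibsp (1.87), Ctsk (0.60) and Ifng (-0.33). No paired analysis was possible because the replicate numbers were given in accession order and pair no samples. The depth limits genes under about 1 CPM most.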
